A study of Mus musculus with 4 samples.

Results

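The Rtl1-antisense miRNAs described here are the mature products of 5 hairpins, miR-431, miR-433, miR-127, miR-434 and miR-136, whose DNA lies opposite the gene Rtl1 in the imprinted Dlk1-Dio3 region of the mouse. They were taken by name, both arms of each hairpin, which gave 10 of the 1907 mature miRNAs listed. Small RNA-seq had been performed on 4 libraries of E14Tg2A cells, a mouse embryonic stem (ES) line of strain 129/Ola grown on gelatin. ES cells were analysed at day 0, grown either with fetal calf serum and LIF (ES serum) or in 2iL, an N2/B27 medium that holds LIF, the MEK inhibitor PD0325901 and the GSK3 inhibitor CHIR99021 but no serum (ES 2iL). Epiblast-like aggregates (ELA) were obtained from each of these cultures by 2 days of floating culture in N2/B27 medium without LIF, and are called ELA serum and ELA 2iL after the medium of the ES cells. The labels name no engineered allele, and all libraries come from the same cell line. Each library was made from RNA pooled from 3 experiments. Each group therefore has 1 library, and no value below carries an error between cultures.

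Imprinted genes are transcribed from the copy of only 1 parent. In the Dlk1-Dio3 region the maternal chromosome gives a long noncoding transcript, which starts at Meg3 and carries many miRNA hairpins. The paternal chromosome gives the coding genes, among them Rtl1, a gene derived from a retrotransposon that is needed for a normal placenta. Because the hairpins opposite Rtl1 are read from the other strand, their mature miRNAs pair with the Rtl1 mRNA along their whole length, and such pairing directs Argonaute to cut the mRNA. Loss of expression of the maternal transcript is a known epigenetic variation among mouse pluripotent cell lines.

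The 5 hairpins lie on the plus strand of chromosome 12 within 4952 bp (mm9). From the lowest coordinate upwards they are Mir431 (chr12:110828657-110828747), Mir433 (chr12:110829925-110830048), Mir127 (chr12:110831042-110831138), Mir434 (chr12:110832716-110832809) and Mir136 (chr12:110833527-110833608). All 5 fall inside the coding sequence of Rtl1 (chr12:110828382-110833613, minus strand), which lies in a single exon, so that in the map of the locus the hairpins face the Rtl1 coding block from the other strand. Mir136 is nearest to the Rtl1 start codon and Mir431 farthest from it. The spaces between these 5 range from 717 to 1577 bp. A further hairpin on the same strand, Mir432 (chr12:110833166-110833240), lies between Mir434 and Mir136 inside the Rtl1 coding sequence. It is not among the members and is not drawn in the map, and mmu-miR-432 had 1 read in the 4 libraries. The mature sequences from RefSeq (GRCm38.p6 table) are shown because their seeds largely decide which mRNAs each miRNA can pair with. They are written 5′ to 3′ with the seed, bases 2 to 8, in capitals:
mmu-miR-431-5p: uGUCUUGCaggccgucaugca
mmu-miR-431-3p: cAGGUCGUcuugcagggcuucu
mmu-miR-433-5p: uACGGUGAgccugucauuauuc
mmu-miR-433-3p: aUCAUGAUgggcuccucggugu
mmu-miR-127-5p: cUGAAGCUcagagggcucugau
mmu-miR-127-3p: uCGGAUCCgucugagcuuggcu
mmu-miR-434-5p: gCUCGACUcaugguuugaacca
mmu-miR-434-3p: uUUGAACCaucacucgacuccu
mmu-miR-136-5p: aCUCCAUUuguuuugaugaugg
mmu-miR-136-3p: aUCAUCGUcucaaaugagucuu

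**Figure D1:**
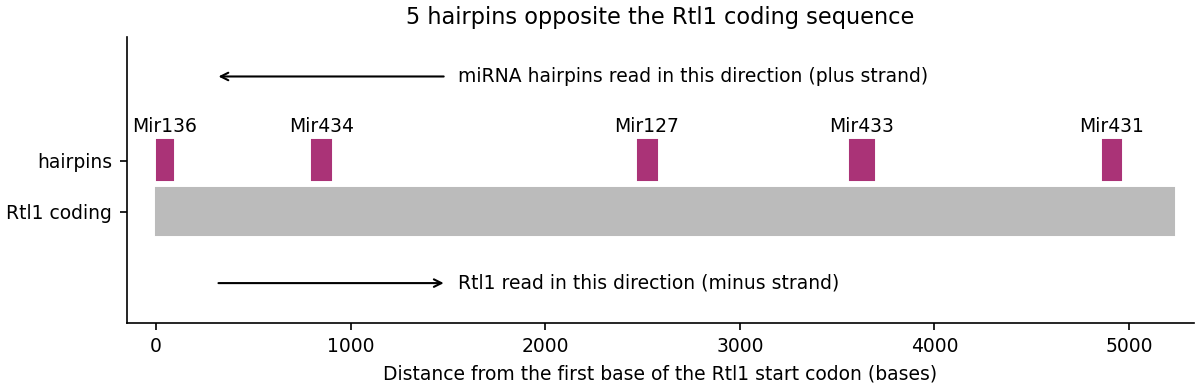
Map of the Rtl1 locus drawn to scale, with the distance in bases from the first base of the Rtl1 start codon on the horizontal axis. Boxes mark the Rtl1 coding sequence and the 5 hairpins of the members on the opposite strand (Mir432 is not drawn), and all 5 fall within the coding sequence.

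The 10 seeds are all distinct. No other listed miRNA with a sequence in that table (1623 of the 1907 listed matched) has any of them, so the members share a position and a host transcript but not a seed. Each mature sequence occurs 1 time in the mm9 genome, and its reverse complement occurs 1 time in the Rtl1 transcript. For mmu-miR-127-3p (chr12:110831098-110831119) the facing Rtl1 site is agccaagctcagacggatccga, which begins 2494 bases from the first base of the start codon. For mmu-miR-434-3p (chr12:110832775-110832796) it is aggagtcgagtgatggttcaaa, at 817 bases. The members are 21 or 22 bases long. The G and C content runs from 36.4% for both arms of miR-136 to 59.1% for mmu-miR-431-3p and mmu-miR-127-3p.

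Values are in RPM, reads per 1000000 miRNA reads, that is, a share of the miRNA reads of a library. They do not give an amount per cell, and fewer cells expressing a miRNA cannot be told apart from less of it in each cell. The libraries held 587363 to 8056984 miRNA reads. Both 2iL libraries were shallower than both serum ones, and in each medium the ELA library was shallower than the ES one. Depth thus moved with the medium and with the stage, and its part in the differences between media and between stages was not tested. The miR-290/miR-295 cluster, which marks pluripotent cells, summed to 86119 RPM (ES) and 55535 RPM (ELA) in serum and to 183326 RPM (ES) and 140756 RPM (ELA) in 2iL, with 12 of its 18 listed miRNAs detected and 6 at 0 throughout. The miR-302/miR-367 cluster, which marks the primed state, was at 37319 RPM in ELA serum against 5952 in ES serum, and at 7084 in ELA 2iL against 78.4 in ES 2iL. Of the lists for other cell types, the mesenchymal or feeder markers (4 of 5 with at least 10 reads) summed to between 1475 and 4847 RPM, nearly all of it miR-143-3p. The neural markers (3 of 3) were at 471 to 869 RPM and the muscle markers (1 of 3) at 0 to 73.2. The blood markers (3 of the 4 listed) were at 551 to 2007 RPM, nearly all of it miR-142a-5p, while miR-142a-3p and the liver marker miR-122-5p were at 0 in all 4 libraries. The zeros of miR-142a-3p and of 4 of the 6 in the miR-290/miR-295 cluster are at places where a listed miRNA lies on the other strand. They are not read as absence, for the reason given below for miR-136. Those of miR-292a-3p and miR-292b-5p, whose partner arms lie at such places, are not read as absence either. The sums of this cluster may therefore be too low. The miR-290/miR-295, mesenchymal, neural and blood sums were each higher in 2iL than in serum at both stages, the neural one through miR-128-3p, since miR-9-5p was lower in 2iL at both. The miR-302/miR-367 sum was lower in 2iL at both stages. From ES cells to ELA, the mesenchymal and neural sums fell and the muscle sum rose in both media. The blood sum fell in serum and rose in 2iL. The part of these lists in the differences between media and between stages below was not tested.

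The 8 members with reads spanned a wide range of levels. The most abundant was mmu-miR-127-3p, the dominant arm of its hairpin, with 174652 RPM (ES serum) and 185924 RPM (ELA serum) in the serum libraries, against 40028 RPM (ES 2iL) and 71252 RPM (ELA 2iL). It held place 1 among all listed miRNAs in both serum libraries, place 5 in ES 2iL and place 4 in ELA 2iL. Second in the serum libraries was mmu-miR-434-5p, with 4270.3 RPM for ES cells and 6001 RPM for ELA, and in 2iL it stood at 2141 and 3734 RPM. The other arm, mmu-miR-434-3p, had 3259 RPM (ES) and 5059 RPM (ELA) in serum, against 5915 in ES 2iL and 7653 in ELA 2iL, and was second in both 2iL libraries. Both serum libraries were thus the high ones for mmu-miR-127-3p and mmu-miR-434-5p, and the highest value of mmu-miR-434-3p was in 2iL.

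Next in each library came mmu-miR-431-5p, with 1554 RPM (serum) and 1895 RPM (2iL) in ES cells, and with 1488 RPM (serum) and 896 RPM (2iL) in ELA. Its partner mmu-miR-431-3p was nearly level, with 352, 340.1, 368 and 320.1 RPM in the same order of libraries. For mmu-miR-433-3p the values were 264, 379.5, 322 and 484 RPM, the 2iL library being higher at both stages. For mmu-miR-127-5p, the minor arm of the miR-127 hairpin, they were 270.1, 181, 401 and 317 RPM, with the serum library higher at both stages. The lowest detected member in every library was mmu-miR-433-5p, at 37.7, 33.6, 36.4 and 40.9 RPM, which in ELA 2iL rested on 24 reads. Between neighbours in the order of levels, reads did not separate mmu-miR-127-5p from mmu-miR-433-3p in ES serum (ratio 1.02, exact 95% interval 0.963 to 1.09), nor mmu-miR-431-3p from mmu-miR-127-5p in ELA 2iL (1.01, 0.821 to 1.24). Such intervals cover counting error only.

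**Figure D2:**
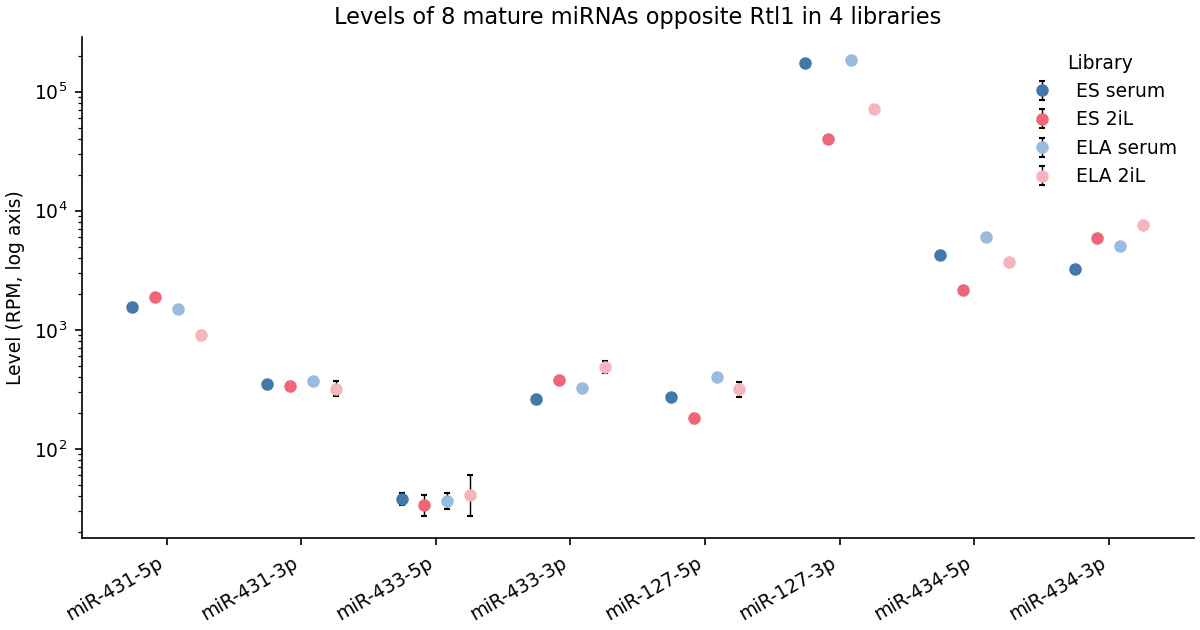
Level of each detected member in the 4 libraries, in RPM on a log axis, with 1 point per library and bars for the Wilson 95% interval of counting. mmu-miR-127-3p lies above every other member in each library, from 40028 to 185924 RPM, and mmu-miR-433-5p lies lowest, from 33.6 to 40.9 RPM.

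Both arms of miR-136 were listed at 0 in all 4 libraries. At these depths a count of 0 allows up to 0.372 RPM (ES serum), 0.696 (ELA serum), 1.08 (ES 2iL) and 5.11 RPM (ELA 2iL), if all reads of a miRNA were counted. The hairpin Mir3071 lies on the other strand of the same DNA. Its arm mmu-miR-3071-3p covers 20 of the 22 bases of mmu-miR-136-5p from the opposite side, and mmu-miR-3071-5p covers 19 bases of mmu-miR-136-3p. The sequence of the former is shown to make the overlap visible, with its seed in capitals:
mmu-miR-3071-3p: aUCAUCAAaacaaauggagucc
Zeros were frequent among overlapping pairs. Of the 57 listed miRNAs that overlap a listed mature miRNA on the other strand, 45 (78.9%) were at 0 in all 4 libraries, against 557 (35.6%) of the 1566 that do not. At least 10 reads in at least 2 libraries were found for 5 (8.77%) of the former and 486 (31.0%) of the latter. How the counting treated reads in such overlaps is not given in the sources used here, so the zeros of mmu-miR-136-5p and mmu-miR-136-3p are not read as absence. The other 8 members passed the minimum of 10 reads in at least 2 libraries.

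Together the 10 members took 18.5% of the miRNA reads of ES serum (Wilson 95% interval 18.44 to 18.49) and 19.96% of those of ELA serum (19.92 to 19.998). In 2iL they took 5.09% in ES cells (5.07 to 5.12) and 8.47% in ELA (8.40 to 8.54). The share was 3.63-fold lower in ES 2iL than in ES serum, and 2.36-fold lower in ELA 2iL than in ELA serum. Nearly all of that difference lay in mmu-miR-127-3p, which made up 94.6% (ES) and 93.1% (ELA) of the cluster's reads in serum, and 78.6% (ES) and 84.1% (ELA) in 2iL. The 9 members without it took 1.00% of the reads of ES serum (0.994 to 1.01) and 1.09% of those of ES 2iL (1.08 to 1.101). In ELA they took 1.37% in serum (1.36 to 1.38) and 1.34% in 2iL (1.32 to 1.37). For these 9, the ratio of 2iL to serum was 1.09 in ES cells (1.07 to 1.102) and 0.983 in ELA (0.960 to 1.01). Both ratios rest on library totals and would be lower under TMM scaling. Its factors on the totals were 1.26 (ES) and 1.13 (ELA) in 2iL, against 0.847 (ES) and 0.831 (ELA) in serum. The share of the 9 members was higher in ELA than in ES cells, 1.37-fold in serum (1.35 to 1.38) and 1.24-fold in 2iL (1.20 to 1.27).

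**Figure D3:**
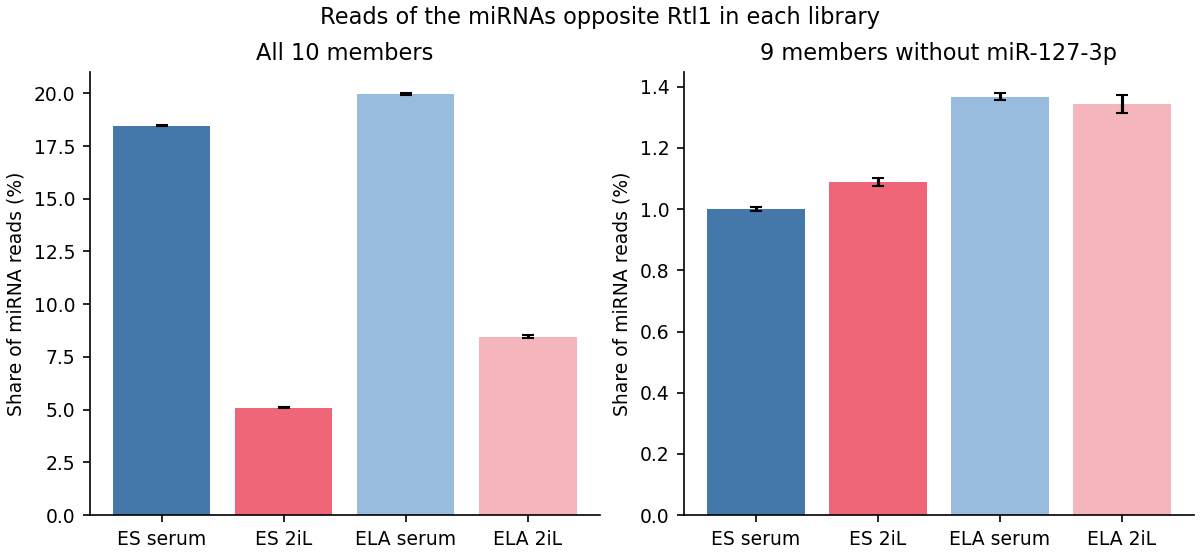
Percentage of the miRNA reads of each library held by the 10 members, and by the 9 members without mmu-miR-127-3p on an axis of its own, with bars for the Wilson 95% interval. The 10 members hold 18.5% and 19.96% in the serum libraries against 5.09% and 8.47% in 2iL, while the other 9 hold 1.00% to 1.37%.

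The comparison of media asked whether these miRNAs differ between ES cells kept in 2iL and in serum, and between the ELA obtained from them. For ELA, the medium is that of the source ES cells. The members parted in both directions. mmu-miR-127-3p was 4.36-fold lower in ES 2iL than in ES serum (exact 95% interval 4.34 to 4.39) and 2.61-fold lower in ELA 2iL than in ELA serum (2.58 to 2.64). mmu-miR-434-5p was 1.99-fold lower in ES cells (1.94 to 2.05) and 1.61-fold lower in ELA (1.54 to 1.68). mmu-miR-127-5p was 1.49-fold lower in ES cells (1.36 to 1.65) and 1.27-fold lower in ELA (1.09 to 1.48). These 3 of the 8 measured members were lower in 2iL at both stages beyond counting error, against 17.5% of all expressed miRNAs, and their direction held under all 5 scalings tried.

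On the other side, 2 of the 8 were higher at both stages beyond counting error under RPM, against 44% of all expressed miRNAs. mmu-miR-434-3p was 1.81-fold higher in ES 2iL than in ES serum (1.78 to 1.85) and 1.51-fold higher in ELA 2iL than in ELA serum (1.46 to 1.56), with the same sign under all 5 scalings. mmu-miR-433-3p was 1.44-fold higher in ES cells (1.33 to 1.55) and 1.501-fold higher in ELA (1.32 to 1.71), though in ES cells its log2 difference was -0.05 under TMM scaling. For mmu-miR-431-3p and mmu-miR-433-5p the intervals of both ratios included 1. mmu-miR-431-5p was 1.22-fold higher in ES 2iL (1.18 to 1.26), where the direction turned under TMM scaling (-0.29) and DESeq2 size factors (-0.11), and 1.66-fold lower in ELA 2iL (1.52 to 1.82), where it did not. Products of different hairpins, and both arms of miR-434, thus differed in opposite directions between media in these libraries.

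**Figure D4:**
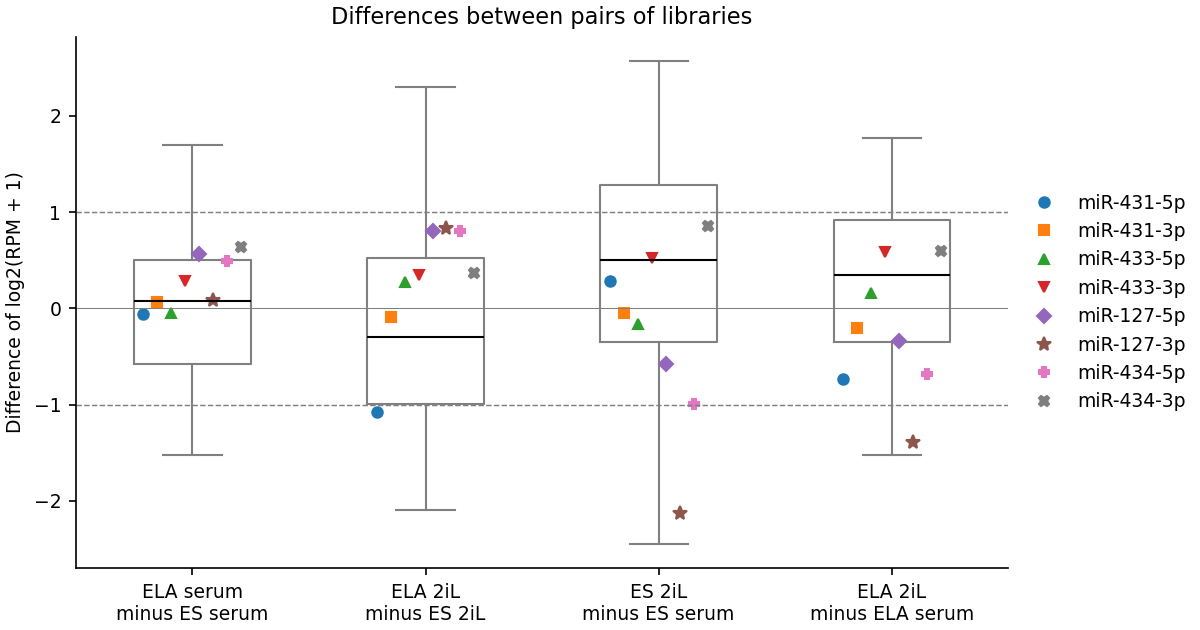
Difference of log2(RPM + 1) of each detected member (symbols) for the 4 pairs of libraries. Boxes give the quartiles and median of all expressed miRNAs in that pair, whiskers run from percentile 5 to percentile 95, and dashed lines mark a difference of 1 either way. mmu-miR-127-3p stands lowest in both pairs of media, at -2.13 in ES cells and -1.38 in ELA, while mmu-miR-434-3p and mmu-miR-433-3p lie above 0 in all 4 pairs.

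A difference of at least 1 on the log2(RPM + 1) scale was counted over miRNAs with a mean of at least 5. In ES cells 1 of the 8 measured members, mmu-miR-127-3p, was lower in 2iL by that much, against 14.8% of all 310 miRNAs, and 0 were higher, against 32.9%. In ELA 1 of 8, again mmu-miR-127-3p, was lower, against 8.94% of all expressed miRNAs, and 0 were higher, against 20.9%. These counts of lower members depend on the scaling, with 3 of 8 in ES cells under TMM scaling and 2 of 8 under the other 3 alternatives, and with 3 of 8 in ELA under TMM scaling and DESeq2 size factors. mmu-miR-434-5p lay just short of this limit in ES cells, at -0.996, and was at -0.68 in ELA. The expressed miRNAs as a whole were shifted upwards in 2iL, with a median of 0.50 in ES cells and 0.35 in ELA. Averaged over both stages, the medium contrast had a median of -0.17 over the 8 measured members (-1.75 to 0.73) and of 0.42 over all expressed miRNAs. That median of 0.42 moved to -0.08 under TMM scaling, 0.04 under DESeq2 size factors and 0.22 with library totals taken without the 10 members. The median of the 8 measured members moved with it, to -0.68, -0.55 and -0.38 in the same order. Of all expressed miRNAs, 13.2% were lower by at least 1 in this contrast under RPM, with 1 of the 8 members among them, and 23.8% were higher, with 0 of the 8. Of the miRNAs past that limit, 64.3% were higher in 2iL under RPM and 32.4% under TMM scaling.

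With limma on log2(RPM + 1), 0 of the 8 members passed an adjusted p-value of 0.05 for the medium, and 0 of the 599 miRNAs tested did (0%), while 176 had an unadjusted p-value under 0.05. For mmu-miR-127-3p the medium contrast was -1.75 ± 0.47 (limma SE), lower in 2iL at 2 of 2 stages, with an adjusted p-value of 0.120 by limma. edgeR's quasi-likelihood test on the reads called 10.7% of the 599 miRNAs and 1 of the 8 members, mmu-miR-127-3p, with a log2 contrast of -2.17 and an edgeR adjusted p-value of 0.0305. DESeq2's Wald test called 13.4% and the same 1 of 8, with a DESeq2 adjusted p-value of 0.000922. Over all alternatives its adjusted p-value ran from 0.000922 to 0.143 (limma, edgeR and DESeq2), so the call depends on the test and the scaling. The next members were mmu-miR-434-5p, at -0.84 ± 0.44 with a limma adjusted p-value of 0.278, and mmu-miR-434-3p, at 0.73 ± 0.44 with one of 0.326.

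Each hairpin gives a 5p and a 3p strand, of which Argonaute usually keeps mainly one. The share of the 5p arm compares reads of the same hairpin in the same library, so it does not depend on the library total. In the miR-127 hairpin the 3p arm made up nearly all reads, and the 5p share was 0.154% in ES serum (Wilson 95% interval 0.148 to 0.161) and 0.215% in ELA serum (0.205 to 0.226), against 0.449% (0.412 to 0.490) and 0.442% (0.383 to 0.511) in the matching 2iL libraries. In miR-434 both arms were abundant, and the 5p share was 56.7% in ES serum (56.3 to 57.1) and 54.3% in ELA serum (53.8 to 54.7), but 26.6% (26.0 to 27.2) and 32.8% (31.7 to 33.9) in the matching 2iL libraries. The more abundant arm of miR-434 was therefore 5p in both serum libraries and 3p in both 2iL libraries.

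The remaining hairpins kept their dominant arm in these 4 libraries. miR-431 was mainly 5p, with a share of 81.5% in ES serum and 80.2% in ELA serum, and of 84.8% in ES 2iL and 73.7% in ELA 2iL (70.3 to 76.8). miR-433 was mainly 3p, with a 5p share of 12.5%, 10.2%, 8.14% and 7.79% (5.29 to 11.3) in the same order. The share of 2iL lay below that of serum at both stages for miR-433 and miR-434 and above it for miR-127, though for miR-433 in ELA the change of the arm ratio, -0.42 on the log2 scale, had an interval that included 0 (-1.07 to 0.23).

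**Figure D5:**
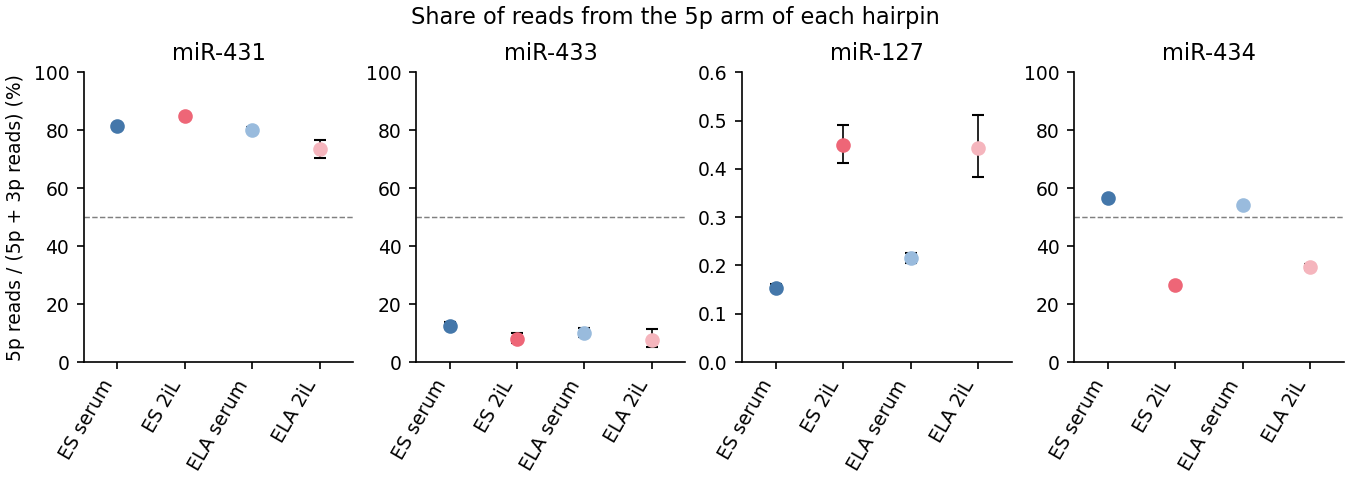
Share of the 5p arm among the reads of each detected hairpin, in percent, for the 4 libraries, with bars for the Wilson 95% interval, a dashed line at equal use of both arms, and a narrower axis for miR-127. For miR-434 the share is 56.7% and 54.3% in serum and 26.6% and 32.8% in 2iL, on either side of equal use, while the other 3 hairpins keep the same dominant arm.

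Arm ratios moved in many hairpins between media, and miR-434 and miR-127 were not alone. The log2 ratio of 5p to 3p reads of miR-434 was lower in 2iL, with a difference of -1.86 in ES cells (-1.90 to -1.81) and of -1.28 in ELA (-1.36 to -1.20). That of miR-127 was higher in 2iL by 1.55 in ES cells (1.41 to 1.69) and by 1.04 in ELA (0.82 to 1.26). Among 99 hairpins with at least 10 reads on each arm in every library, these sizes held places 15 and 26 for miR-434 and 24 and 31 for miR-127. A change of at least 1 in either direction was seen in 2 of the 4 measured hairpins in ES cells, against 38.4% of the 99, and in 2 of 4 in ELA, against 31.3%. The median size was 0.83 in ES cells and 0.76 in ELA. The more abundant arm differed between media at both stages in 6 of the 99 hairpins (6.06%), miR-434 being 1 of them. Between ELA and ES cells, 0 of the 4 hairpins changed by at least 1 in serum, against 9.09%, and 0 in 2iL, against 26.3%. The nearest was miR-431 in 2iL, at -0.99 (-1.25 to -0.73).

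The comparison of stages asked whether the members change at the ES-ELA transition. In both media, 5 of the 8 measured members were higher in ELA beyond counting error, with the same sign under all 5 scalings, and 1, mmu-miR-431-5p, was lower in both, though in serum not under DESeq2 size factors. Of all expressed miRNAs, 26.8% were higher in both media by the same interval and 32.1% lower, so clearing counting error was common at these depths. The median log2 difference of all expressed miRNAs was 0.08 in serum and -0.30 in 2iL. For mmu-miR-127-3p the ratio of ELA to ES was 1.06 in serum (exact 95% interval 1.06 to 1.07) and 1.78 in 2iL (1.76 to 1.8002). For mmu-miR-127-5p it was 1.48 in serum (1.39 to 1.58) and 1.75 in 2iL (1.47 to 2.08). For mmu-miR-434-5p it was 1.41 (1.38 to 1.43) and 1.74 (1.66 to 1.83), and for mmu-miR-434-3p 1.55 (1.52 to 1.58) and 1.29 (1.25 to 1.34). For mmu-miR-433-3p it was 1.22 (1.14 to 1.31) and 1.27 (1.11 to 1.45). Under RPM each of these ratios was below 2, while in 2iL mmu-miR-127-3p, mmu-miR-127-5p and mmu-miR-434-5p passed 1 on the log2 scale under DESeq2 size factors (1.03 to 1.06) and under totals without the 5 most abundant miRNAs (1.05 to 1.08).

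Going the other way, mmu-miR-431-5p was 2.12-fold lower in ELA 2iL than in ES 2iL (1.93 to 2.32), while in serum its ratio was 0.957 (0.929 to 0.987), a direction that turned under DESeq2 size factors. The intervals of mmu-miR-431-3p and mmu-miR-433-5p included 1 in both media. By the limit of 1 on the log2 scale, 0 of the 8 measured members were higher in ELA in serum, against 8.33% of all 288 miRNAs, and 0 lower, against 14.6%. In 2iL 0 were higher, against 15.3% of all 314, and 1 was lower, mmu-miR-431-5p, against 25.2%. These counts turn with the scaling, to 3 higher and 0 lower under DESeq2 size factors and under totals without the 5 most abundant miRNAs, and to 0 lower under TMM scaling.

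Averaged over both media, the stage contrast had a median of 0.39 over the 8 measured members (-0.57 to 0.69) and of -0.08 over all expressed miRNAs. Of the latter, 11.6% were higher and 16.2% lower by at least 1, and 0 of the 8 members passed in either direction. limma called 0 of the 8 members and 0% of the 599 miRNAs for stage, with 125 miRNAs at an unadjusted p-value under 0.05. edgeR called 0 of the 8 members and 6.51% of the 599, and DESeq2 called 0 of 8 and 8.35%. The smallest limma adjusted p-value among the members was 0.395, for mmu-miR-127-5p (0.69 ± 0.44), so the differences between stages are a description of these libraries.

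Because the hairpins are cut from a shared transcript, the proportions between members were also read directly. The reads of mmu-miR-127-3p were 53.6 times those of mmu-miR-434-3p in ES serum and 36.7 times in ELA serum, against 6.77 times in ES 2iL and 9.31 times in ELA 2iL. Against mmu-miR-434-5p the ratio was 40.9, 31.0, 18.7 and 19.1 in this order, and against mmu-miR-431-5p it was 112, 125, 21.1 and 79.6. Against its own partner mmu-miR-127-5p it was 647, 464, 222 and 225. In each case the ratio was lower in 2iL than in serum at both stages, and none of these ratios depends on the library total.

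The miRNAs most like mmu-miR-127-3p were looked for by the root-mean-square distance between log2(RPM + 1) levels, each centred on its own mean over the 4 libraries, among all expressed miRNAs that are no members. With 4 points for each miRNA this is a description only. The nearest was mmu-miR-200b-3p, of the miR-200 family known from epithelial cells, at a distance of 0.0085, with 3361 RPM (ES) and 3533 RPM (ELA) in serum, and 757.9 RPM (ES) and 1355 RPM (ELA) in 2iL. It is no miRNA of the imprinted region. Then followed mmu-miR-379-5p (0.217), mmu-miR-673-3p (0.223), mmu-miR-381-3p (0.234) and mmu-miR-1193-3p (0.282). All 4 are on the lists of the same imprinted region given below, which hold 17.3% of these candidates (51 miRNAs). The closest member was mmu-miR-434-5p at 0.479, and mmu-miR-434-3p was at 1.27.

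Other miRNAs of the Dlk1-Dio3 region were taken by name as 3 lists, which were not checked for completeness or against genome positions. For the Meg3-proximal list, 15 were listed, 2 were at 0 in all 4 libraries and 5 were expressed at a mean log2(RPM + 1) of at least 5. Its median medium contrast was -0.63, with 5 of 5 below 0 and 2 lower by at least 1. For the miRNAs between Rtl1 and the miR-379/miR-410 cluster, with 6 listed and 4 expressed, the median was -1.25, with 4 of 4 below 0 and 2 lower by at least 1. For the large miR-379/miR-410 cluster, with 76 listed, 8 at 0 and 42 expressed, it was 0.10, with 19 of 42 below 0, 6 lower and 5 higher by at least 1. Beside these, 34.8% of all expressed miRNAs were below 0, 13.2% were lower and 23.8% higher by at least 1, and their median was 0.42, as given above. All these values are under RPM. The lists were not taken under the other scalings, and TMM scaling moved the median of all expressed miRNAs to -0.08. The Meg3-proximal and middle lists hold few expressed miRNAs, and no list was tested against the rest. The median stage contrast was 0.31, 0.86 and 0.43 for the 3 lists in the same order, against -0.08 over all expressed miRNAs. The miR-379/miR-410 list took 10.3% (ES) and 14.03% (ELA) of the reads in serum, and 5.19% (ES) and 9.57% (ELA) in 2iL. Much of the smaller share in 2iL lay in mmu-miR-541-5p and mmu-miR-409-5p, which were picked for this after their values were seen. Without them the other 74 took 5.46% (ES) and 7.29% (ELA) in serum, and 3.91% (ES) and 5.36% (ELA) in 2iL.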

How the data were processed

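Small RNA was sequenced from 4 libraries of E14Tg2A cells (TruSeq Small RNA kit, MiSeq, single reads). According to the methods and labels, the authors called bases with CASAVA 1.8, trimmed adaptors with Trimmomatic, mapped to mm9 with Bowtie and counted reads on the mature miRNAs of miRBase 20 with featureCounts. Other versions, the mismatches allowed and the treatment of overlapping miRNAs are not given in the sources used here. The deposited values are RPM, scaled by the authors to 1000000 per library. All sample columns were used (0 left out). Titles, source names and column names set the groups. The description field exchanges ES 2iL and ELA serum and was not used. If it were right, every comparison here would change. The miR-302/miR-367 markers of the primed state summed to 37319 RPM in the library titled ELA serum and to 78.4 in that titled ES 2iL.

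In every library 100% of values were whole multiples of 1 read (tolerance 0.01 read), which gave 8056984 (ES) and 4309257 (ELA) reads in serum, and 2767016 (ES) and 587363 (ELA) in 2iL. Differences were taken on log2(RPM + 1), which understates changes of low miRNAs. limma 3.58.1 was fitted to all 4 libraries with stage and medium as terms, for the 599 miRNAs that had 10 or more reads in 2 or more libraries, two-sided, with Benjamini-Hochberg adjustment over all 599. It has 1 residual degree of freedom, and the media stand in for replicates of a stage, and the stages for those of a medium. Alternatives were other scalings (TMM, DESeq2 size factors, totals without the 5 most abundant miRNAs or without the 10 members), pseudocounts of 0.5 and 5, other filters, edgeR 4.0.16 and DESeq2 1.42.0 on the recovered reads (R 4.3.3). Pairs of libraries have exact (Clopper-Pearson) 95% intervals, shares have Wilson intervals, and changes of arm ratios have large-sample intervals from the read numbers, all for counting error only, since reads carry no molecular identifiers. A count of 0 was given a limit of 3 reads.

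Coordinates are mm9 (GENCODE M1 annotation), and mature sequences were matched to that genome. All 10 members are named, as are the 5 most similar miRNAs. The members and lists were chosen with earlier results of these data known.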

Additional observations from a re-analysis of the deposited data

Results flagged for a closer look

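For mmu-miR-431-5p the difference between media pointed in opposite directions at the 2 stages. Its log2 ratio of 2iL to serum was 0.29 in ES cells and -0.73 in ELA, a difference of -1.02. With 1 library per group the difference was not tested. The value in ES cells turned to -0.29 under TMM scaling and -0.11 under DESeq2 size factors, while that in ELA stayed below 0 under all 5 scalings. Groups of 1 library could not be searched for single samples that stand apart.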

How the results depend on the processing

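The labels give no replicate numbers, so no further block was added. The fit compares stages within each medium and media within each stage, as both are terms in it. With 1 library per group, no library could be left out within a group. The count of members called for the medium went from 0 to 1 (mmu-miR-127-3p) with TMM scaling, totals without the 5 most abundant miRNAs, edgeR, DESeq2 and no filter. The members lower by at least 1 in the medium contrast went from 1 to 2 with TMM scaling, DESeq2 size factors and totals without the 10 members. In ES cells those lower in 2iL went from 1 to 3 with TMM scaling and to 2 with DESeq2 size factors, totals without the 5 most abundant miRNAs and totals without the 10 members. In ELA they went from 1 to 3 with TMM scaling and DESeq2 size factors. Between ELA 2iL and ES 2iL, the members higher in ELA went from 0 to 3 with DESeq2 size factors and totals without the 5 most abundant miRNAs, and those lower went from 1 to 0 with these and TMM scaling. The stage contrast of mmu-miR-431-3p, -0.01, turned to 0.0831 with TMM scaling, 0.20 with DESeq2 size factors and DESeq2's test, 0.0749 without the 5 most abundant miRNAs, 0.0269 without the 10 members and 0.17 with edgeR. The medium contrast of mmu-miR-433-5p, -0.000513, turned to 7.96e-05 with a pseudocount of 5. Over all miRNAs, calls for stage went from 0 to 28 with TMM scaling, 70 without the 5 most abundant miRNAs, 9 with a pseudocount of 5, 39 with edgeR, 50 with DESeq2 and 99 of 1202 without a filter. For the medium they went from 0 to 55, 94, 38, 64, 80 and 130. ELA was the higher stage for 41.7% of the miRNAs past the limit of 1 under RPM, 51.1% with TMM scaling and 62.5% with DESeq2 size factors. For the medium, 43.4% were higher in 2iL with DESeq2 size factors, 59.0% without the 5 most abundant miRNAs and 54.3% without the 10 members. Members called for stage stayed at 0 in every setting. A minimum of 10 reads per arm left out no arm with reads, so it could not change the 5p shares. Depth limits mmu-miR-433-5p most, with 24 reads in ELA 2iL.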

Other observations

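Other miRNAs of the Rtl1 locus had few reads. mmu-miR-3071-3p, on the strand opposite miR-136, had 173 reads in ES serum and 102 in ELA serum (21.5 and 23.7 RPM), against 8 in ES 2iL and 6 in ELA 2iL (2.89 and 10.2 RPM). Its partner mmu-miR-3071-5p was at 0 in all 4 libraries, and mmu-miR-432 had 1 read, in ES serum.

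Besides miR-434, the hairpins whose more abundant arm differed between media at both stages were miR-152, miR-221, miR-379, miR-409 and miR-700, which were named after their values were seen. Of these, miR-379 and miR-409 belong to the miR-379/miR-410 cluster of the same imprinted region.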
